A study of Danio rerio with 6 samples.

Results

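The 10 genes described here, spi1b, spi1a, cebpa, csf1ra, marco, mpeg1.1, lyz, mpx, lcp1 and coro1a, are genes of myeloid cells, taken by symbol from a table of 31701 zebrafish genes. They were chosen by their known roles and by their normalized values in these 6 libraries, so their levels and differences are given as a description, without a test. RNA was measured in 6 libraries of cells sorted from embryos of strain AB at 48 hpf (hours post fertilization), 2 libraries in each of 3 groups. Sibling and hhex mutant cells came from Tg(kdrl:EGFP)s843 embryos and were sorted on EGFP, which the kdrl promoter drives in endothelial cells and the blood-forming cells that arise from them; the hhex overexpression cells came from embryos that also carried Tg(fli1a:tdTomato-2A-hhex)bns136, in which the fli1a promoter drives hhex, and were sorted on both EGFP and tdTomato. Every group was therefore sorted on kdrl:EGFP, and the additional fli1a:tdTomato gate of the overexpression group cannot be told apart from the overexpression itself. Siblings and mutants were told apart by whether the parachordal lymphangioblasts had formed, so that a Sibling embryo can carry the mutation on a single chromosome, although the labels call the group wild type. The mutant allele was hhex s722 per the study's methods, a small in-frame deletion in the homeodomain. The sources used here do not give the number of embryos behind each library, or whether the 2 libraries of a group came from separate clutches. P-values therefore measure only the spread between these libraries, which may be technical.

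Myeloid cells are the macrophages, neutrophils and related cells of innate immunity. In the zebrafish embryo the first of them come from anterior mesoderm, and later ones arise from progenitors that bud from hemogenic endothelium, a vessel lining that expresses kdrl. The transcription factor PU.1, encoded in zebrafish by the duplicated genes spi1b and spi1a, directs progenitors to the myeloid fate, and C/EBP alpha, encoded by cebpa, acts with it towards granulocytes. Mature neutrophils are loaded with granule enzymes such as the products of lyz and mpx, macrophages express csf1ra, marco and mpeg1.1, and leukocytes of both kinds express the actin-binding proteins encoded by lcp1 and coro1a.

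The libraries were of similar depth. The normalized values (read numbers per gene divided by a size factor per library and rounded by the authors) summed to 19133058 to 23381023 per library, which came to an estimated 19651603 to 23615228 reads on genes from the spacing of the low values. The endothelial label was checked on 12 endothelial markers, all present in every library, whose values summed to 36083 and 60905 in Sibling, 25485 and 73245 in hhex mutant and 89126 and 70252 in hhex overexpression. The hhex gene itself stood at 204 and 279 in Sibling, 613 and 1157 in hhex mutant and 764 and 925 in hhex overexpression; a value over the whole gene does not read a small deletion, so it does not check the mutant label. In a limma fit on log2(value + 1) of all 6 libraries restricted to the 20900 genes whose mean value reached 5, the count of genes past a Benjamini-Hochberg adjusted p of 0.05 was 0 in each of the 3 comparisons; at an unadjusted p of 0.05 it was 3135 for hhex overexpression against Sibling, 711 for hhex mutant against Sibling and 3675 for hhex overexpression against hhex mutant. A single value compared 2 against 2 cannot go below an exact two-sided p of 0.333. All 10 myeloid genes passed the filter on low values.

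**Figure D1:**
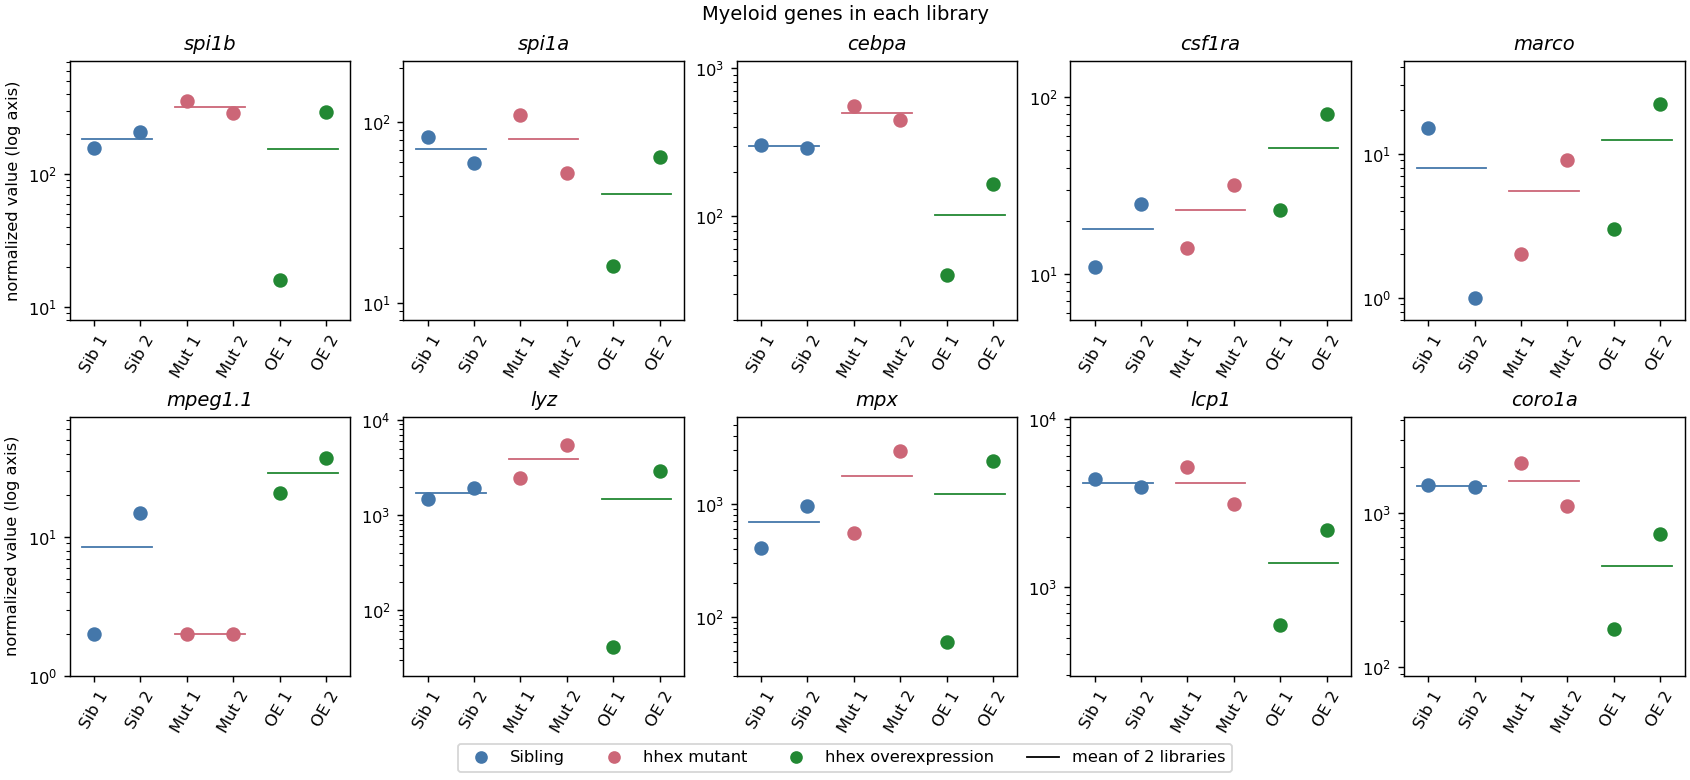
Normalized value of each of the 10 myeloid genes in each library (log axis; Sib, Sibling; Mut, hhex mutant; OE, hhex overexpression; numbers are replicates; lines, mean of the 2 libraries). All 10 genes were higher in the second overexpression library than in the first, as were 10243 of the 20900 genes tested. lyz ran from 41 to 2948 between these libraries.

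The transcription factor genes were examined first. spi1b (ENSDARG00000000767, chr7:32373523-32388203, minus strand, GRCz10), the main PU.1 gene of zebrafish myeloid progenitors, had values of 159 and 210 in Sibling, 356 and 291 in hhex mutant, and 16 and 294 in hhex overexpression. Both mutant libraries lay above both Sibling libraries, whereas overexpression replicate 1 was the lowest of the 6 and replicate 2 stood at the mutant level. The log2 fold change against Sibling was 0.81 for hhex mutant and -1.38 ± 1.07 (SE) for hhex overexpression, and the second of these was 0.68 without overexpression replicate 1. The annotated spi1b gene shares 528 bases with si:ch73-314g15.3 on the opposite strand, which had values of 310, 312, 170, 277, 47 and 156 in the same order; the strand setting of the counting is not given in the sources used here, so reads in the shared stretch cannot be assigned with certainty.

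Its duplicate spi1a (ENSDARG00000067797, chr25:35048603-35067306, plus strand) was read less often, with 83 and 59 in Sibling, 109 and 52 in hhex mutant and 16 and 64 in hhex overexpression. Only overexpression replicate 1 stood apart, and the other 5 libraries overlapped between 52 and 109. The log2 fold change was -1.09 ± 0.67 (SE) for hhex overexpression against Sibling and 0.11 for hhex mutant against Sibling. The ratio of the spi1b to the spi1a value was 1.92 and 3.56 in Sibling, 3.27 and 5.60 in hhex mutant and 1.00 and 4.59 in hhex overexpression, so the duplicates did not vary in proportion.

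cebpa (ENSDARG00000036074, chr7:37813728-37816607, minus strand) separated the groups more evenly. Its values were 301 and 290 in Sibling, 556 and 443 in hhex mutant and 40 and 164 in hhex overexpression. The 3 groups did not overlap, with hhex overexpression lowest and hhex mutant highest. The log2 fold change was -1.85 ± 0.56 (SE) for hhex overexpression against Sibling, 0.75 for hhex mutant against Sibling and -2.60 for hhex overexpression against hhex mutant. Leaving out any single library kept the first of these between -2.85 and -0.85.

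The genes of the granule enzymes had the widest spread. lyz (ENSDARG00000057789, chr24:23890689-23893626, minus strand) encodes lysozyme, which cleaves bacterial cell walls. Its values were 1496 and 1951 in Sibling, 2437 and 5421 in hhex mutant, and 41 and 2948 in hhex overexpression. Both mutant libraries were above both Sibling libraries, and overexpression replicate 2 lay between the mutant libraries, whereas overexpression replicate 1 was far below every other library. The overexpression replicates differed by 6.13 on the log2 scale, a difference that 0.0239% of the 20900 genes matched or passed in size.

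mpx (ENSDARG00000019521, chr10:7815556-7827254, minus strand) encodes the myeloperoxidase of neutrophil granules and followed a similar course. It stood at 403 and 963 in Sibling, 552 and 2941 in hhex mutant and 60 and 2395 in hhex overexpression. The second libraries of hhex mutant and hhex overexpression were the highest of the 6, and overexpression replicate 1 was again the lowest. Its overexpression replicates differed by 5.30 on the log2 scale, matched by 0.0813% of genes. The group means thus described neither overexpression library: the log2 fold change against Sibling was -2.28 ± 1.79 (SE) for lyz and -0.71 ± 1.70 (SE) for mpx, and without overexpression replicate 1 these were 0.79 and 1.94. For mpx in hhex mutant against Sibling the value of 1.03 became -0.17 without mutant replicate 2, so replicate 2 alone carried it.

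The genes of the leukocyte actin proteins were low in both overexpression libraries. lcp1 (ENSDARG00000023188, chr9:56663226-56705090, minus strand) encodes L-plastin, which bundles actin filaments in leukocytes, and had values of 4417 and 3923 in Sibling, 5160 and 3143 in hhex mutant and 598 and 2196 in hhex overexpression. coro1a (ENSDARG00000054610, chr3:30795522-30810520, minus strand) encodes coronin 1A, a regulator of the leukocyte cytoskeleton, with 1525 and 1474 in Sibling, 2112 and 1113 in hhex mutant and 176 and 729 in hhex overexpression. For both genes the Sibling and mutant libraries overlapped and the overexpression libraries lay below all 4 others. The log2 fold change of hhex overexpression against Sibling was -1.86 ± 0.53 (SE) for lcp1 and -2.06 ± 0.59 (SE) for coro1a, and leaving out single libraries kept them between -2.80 and -0.92 and between -3.08 and -1.04.

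The pair also kept nearly the same proportion in every library. The ratio of coro1a to lcp1 was 0.345 and 0.376 in Sibling, 0.409 and 0.354 in hhex mutant and 0.294 and 0.332 in hhex overexpression, although lcp1 itself varied from 598 to 5160. The ratio of lyz to lcp1, by contrast, was 0.339 and 0.497 in Sibling, 0.472 and 1.72 in hhex mutant and 0.0686 and 1.34 in hhex overexpression. For mpx to lcp1 the ratio was 0.0912 and 0.245 in Sibling, 0.107 and 0.936 in hhex mutant, and 0.1003 and 1.09 in hhex overexpression. Neither lyz nor mpx therefore scaled with lcp1, and both were highest per lcp1 in the second libraries of hhex mutant and hhex overexpression. Overexpression replicate 1 had the least lyz per lcp1, but its mpx per lcp1 lay between Sibling replicate 1 and mutant replicate 1. The ratio of mpx to lyz was highest in overexpression replicate 1, at 1.46, so the low ratio there held for lyz and not for mpx.

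The macrophage genes of the 10 had few reads. csf1ra (ENSDARG00000102986, chr14:3170816-3202049, minus strand), a receptor for the macrophage growth factors Csf1 and Il34 that is also known from pigment cells, had values of 11 and 25 in Sibling, 14 and 32 in hhex mutant and 23 and 80 in hhex overexpression. Overexpression replicate 2 was the highest library, and replicate 1 lay within the range of the others. About 105 reads in hhex overexpression and 40 in Sibling gave a ratio of normalized values of 3.01 (95% interval 2.07 to 4.45, exact binomial, counting error only). The log2 fold change was 1.32 ± 0.76 (SE), and leaving out single libraries moved it between 0.44 (without overexpression replicate 2) and 2.20 (without overexpression replicate 1).

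mpeg1.1 (ENSDARG00000055290, chr8:29700878-29704389, minus strand), which encodes a pore-forming protein of macrophages, stood at 2 and 15 in Sibling, 2 and 2 in hhex mutant and 21 and 37 in hhex overexpression. Both overexpression libraries were above all 4 others, with a log2 fold change against Sibling of 2.06 ± 0.97 (SE), which became 0.85 with Sibling replicate 1 left out and 3.27 with Sibling replicate 2 left out. About 58 reads against 18 gave a ratio to Sibling of 3.70 (95% interval 2.15 to 6.67). For hhex mutant, 58 against 4 gave a ratio of 14.0 (5.19 to 53.1). Both intervals cover counting error only and not the spread between libraries, such as 2 and 15 within Sibling. Reads that align to several places were left out by the authors, and the gene has close duplicates, so its value is uncertain to that extent; mpeg1.2 had values of 223 and 218 in Sibling, 181 and 470 in hhex mutant and 130 and 175 in hhex overexpression and was below all 4 others in both overexpression libraries.

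marco (ENSDARG00000059294, chr9:796083-813878, minus strand) encodes a scavenger receptor that binds bacteria and had values of 15 and 1 in Sibling, 2 and 9 in hhex mutant and 3 and 22 in hhex overexpression. All 3 groups overlapped. The ratio of hhex overexpression was 1.49 to Sibling (95% interval 0.801 to 2.82) and 2.51 to hhex mutant (1.17 to 5.84), with intervals that cover counting error only and not the spread between libraries.

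**Figure D2:**
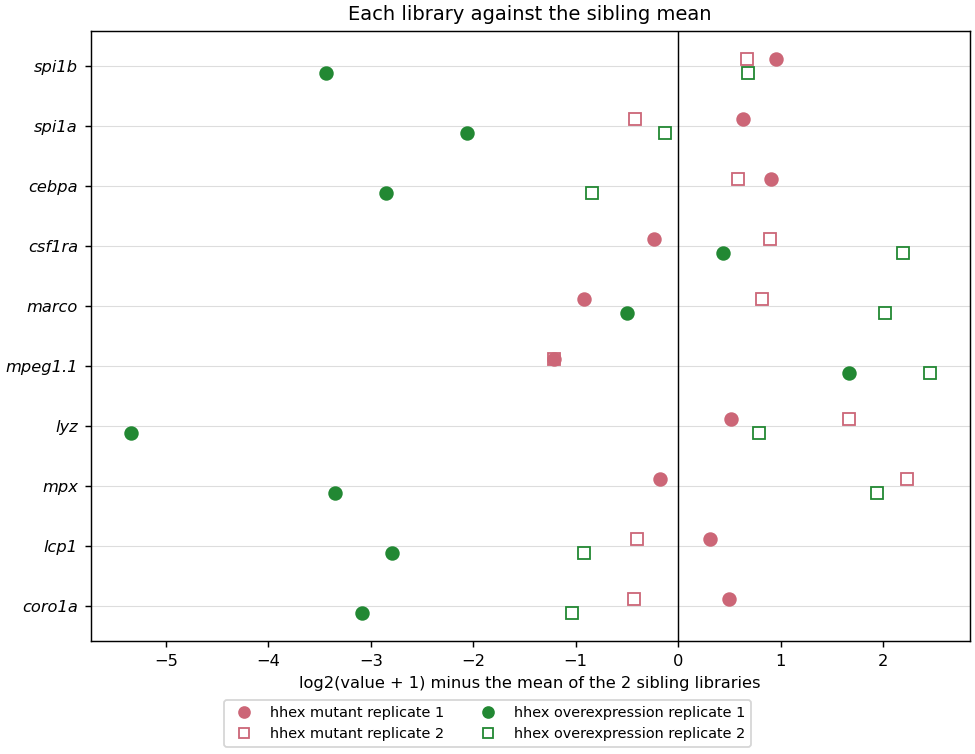
Position of each mutant and overexpression library relative to the Sibling mean for the 10 myeloid genes (x axis, log2(value + 1) minus the mean of the 2 Sibling libraries; filled circles, replicate 1; open squares, replicate 2). cebpa, lcp1, coro1a and spi1a were below 0 in both overexpression libraries (spi1a at -0.13 in replicate 2), lyz, mpx and spi1b were below 0 in replicate 1 alone, csf1ra and mpeg1.1 were above 0 in both, and marco was above 0 in replicate 2 alone.

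Set side by side, the 10 genes did not share a direction. In hhex overexpression against Sibling 3 of the 10 genes (cebpa, lcp1 and coro1a) were lower without overlap, where 27.0% of all genes tested were, and 1 (mpeg1.1) was higher, where 26.9% were. Against all 4 other libraries these same 3 genes were lower in both overexpression libraries, where 17.3% of genes were, and mpeg1.1 was higher, where 16.0% were. In hhex mutant against Sibling spi1b, cebpa and lyz, 3 of 10, were higher without overlap, where 13.3% of genes were, and 0 of 10 were lower, where 13.4% were. In hhex overexpression against hhex mutant 3 of 10 were lower (24.6% of all genes) and 1 was higher (24.1%). Since the genes were chosen with these contrasts known, nothing is read from the counts.

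The median log2 fold change of the 10 genes against Sibling was -1.24 for hhex overexpression and 0.22 for hhex mutant, and it was -1.78 for hhex overexpression against hhex mutant, beside 0.022, -0.010 and 0.020 over all genes tested. The median for hhex overexpression against Sibling was 0.73 without overexpression replicate 1 and -2.83 without replicate 2. The single libraries carried this spread: the values of the 10 genes summed to 8412 and 8911 in Sibling, 11300 and 13447 in hhex mutant, and 994 and 8929 in hhex overexpression. The sum in overexpression replicate 2 joined lcp1 (2196) and coro1a (729) below both Sibling libraries with lyz (2948) and mpx (2395) above both. 7 of the 10 genes had their lowest value in overexpression replicate 1, the exceptions being csf1ra, marco and mpeg1.1. In that library 5091 of the 20900 genes tested had their lowest value. In these sorted bulk samples, fewer myeloid cells and less myeloid RNA per cell cannot be told apart.

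**Figure D3:**
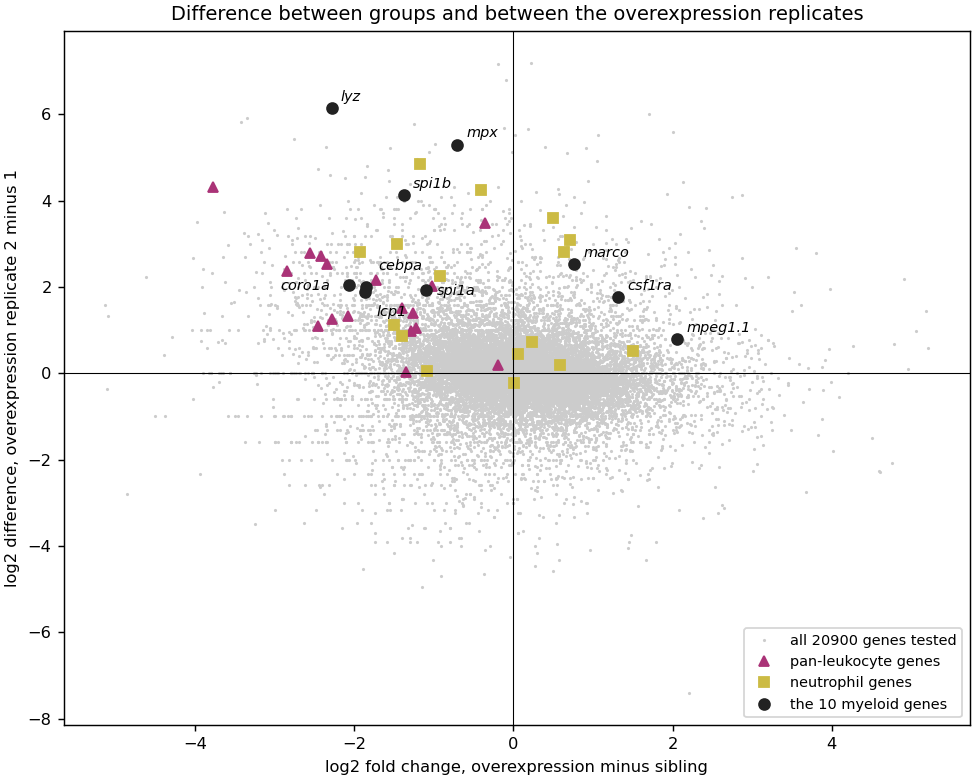
Difference between groups against difference between replicates on the log2 scale (x axis, hhex overexpression minus Sibling; y axis, overexpression replicate 2 minus replicate 1; grey, all 20900 genes tested; triangles, pan-leukocyte genes; squares, neutrophil genes; black, the 10 myeloid genes). lyz, mpx and spi1b lie highest of the 10, with replicate differences of 6.13, 5.30 and 4.12.

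Other genes of the same cells were then followed in 6 lists, of which 84 genes were found and 68 passed the filter on low values. These lists were also chosen with earlier results of these data known. Of the 68 genes, 47 had their lowest value in overexpression replicate 1, where 5091 of the 20900 genes tested did. Their counts here and below are a description and not independent results. In hhex overexpression against Sibling 0 of the 68 passed the adjusted threshold. At an unadjusted p of 0.05 in the limma fit 23 were lower, 33.8% of the lists where 8.77% of all genes were, and 5 were higher, 7.35% where 6.23% were. A fit of the 4 libraries of this comparison alone, whose spread leaves the mutant libraries out, called 11 of the 68, where it called 841 of all 20900 genes: apoeb, hexb and mfap4 were higher (1.88% of all genes were), and csf1rb, myb, runx1, cebpb, mych, wasb, lcp2a and parvg were lower (2.15% were), with adjusted p of 0.000898 for apoeb and 0.0368 for cebpb as the ends of the range.

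The pan-leukocyte list, proteins of signalling, adhesion and motility shared by white blood cells, was the most uniform. All 17 tested genes had a log2 fold change below 0 in hhex overexpression against Sibling, with a median of -1.73. Of the 20900 genes tested 10157 were below 0 in that comparison and 10715 above. At the unadjusted threshold 13 were lower, where 8.77% of all genes were. In both overexpression libraries 14 were below all 4 other libraries, where 17.3% of all genes were. ptprc, the CD45 phosphatase of leukocyte membranes, had values of 988 and 743 in Sibling, 922 and 496 in hhex mutant and 69 and 405 in hhex overexpression. fermt3b, a kindlin that activates integrins, stood at 650 and 499, 923 and 335, and 34 and 179 in the same groups. plek, encoding the cytoskeletal protein pleckstrin, had the largest difference of the list, -3.77 ± 1.23 (SE, adjusted p = 0.262), with 664 and 454 in Sibling, 839 and 318 in hhex mutant and 8 and 179 in hhex overexpression.

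Of the 17, 16 had their minimum in overexpression replicate 1, as lcp1 and coro1a did, where 5091 of the 20900 genes tested had theirs. The 3 genes not below all 4 others were rac2, hcls1 and fcer1gl, and fcer1gl had its highest value, 66, in overexpression replicate 2. myo1f, a leukocyte myosin, had a log2 fold change of -2.42 and arpc1b, an actin-nucleating subunit, of -1.29. inpp5d, the phosphatase SHIP1, differed least, at -0.19. In hhex mutant against Sibling the median of the list was -0.03, with 7 genes above 0 and 10 below. Of all genes tested 10200 were above 0 in that comparison and 10682 below.

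The neutrophil list had no common direction between hhex overexpression and Sibling, but it split by overexpression replicate. Of its 16 tested genes, 15 were higher in replicate 2 than in replicate 1, where 10243 of the 20900 genes tested were. In replicate 1, 13 had their lowest value, where 5091 of the 20900 did. Its 16 tested genes had a median of -0.20 in hhex overexpression against Sibling, 8 above 0 and 8 below. At the unadjusted threshold 4 were lower, where 8.77% of all genes were. The median became 0.43 when overexpression replicate 1 was left out, and 0.046 when Sibling replicate 2 was. The granule gene npsn, a neutrophil astacin protease, had values of 424 and 822 in Sibling, 649 and 2070 in hhex mutant and 48 and 1401 in hhex overexpression, and cpa5, a carboxypeptidase, had 75 and 194, 146 and 722, and 20 and 398. Like lyz and mpx, both had their highest value in mutant replicate 2 and their lowest in overexpression replicate 1. The metalloproteinase genes mmp9 (201 and 360, 241 and 583, 151 and 1286) and mmp13a (113 and 231, 152 and 401, 65 and 792), named after their values were seen, were also lowest in overexpression replicate 1 but highest in overexpression replicate 2.

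The 4 genes lower at the unadjusted threshold, csf3r, il6r, mych and the lipoxygenase gene alox5a, were below all 4 other libraries in both overexpression libraries, and adam8a and cfl1l were above them. Of the list 25% were thus below, where 17.3% of all genes were, and 12.5% above, where 16.0% were. csf3r, the receptor for the granulocyte growth factor G-CSF, stood at 274 and 309 in Sibling, 284 and 214 in hhex mutant and 28 and 203 in hhex overexpression (log2 fold change -1.92, adjusted p = 0.305). il6r, a cytokine receptor, had 978 and 622, 2339 and 1298, and 186 and 406 (-1.50, adjusted p = 0.240), and the transcription factor gene mych had 1251 and 1346, 1650 and 720, and 597 and 623 (-1.09, adjusted p = 0.256). srgn, encoding the granule proteoglycan serglycin, was the most read gene of the list and lay at 1849 and 1854, 2205 and 3215, and 1654 and 2240. In hhex mutant against Sibling the list had a median of 0.60 with 12 of 16 genes above 0, and 1 of them, il6r, was higher at the unadjusted threshold, 6.25% of the list where 1.23% of all genes were.

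The macrophage list was the only one of the larger myeloid lists with a median above 0 in hhex overexpression against Sibling, 1.11 over 16 tested genes, 11 of them above 0. Endothelial (0.83), neural (0.67) and epidermis markers (1.45) also had medians above 0 there, and erythroid, thrombocyte, lymphoid and muscle markers had medians below 0. How much of the macrophage list was read from other cells was not tested. At the unadjusted threshold 5 of the 16 macrophage genes were higher, where 6.23% of all genes were, and 1 was lower, where 8.77% were. The median of the macrophage list was 0.29 after the libraries were rescaled to an equal endothelial level, where that of all genes was -0.80. apoeb, the apolipoprotein E gene of phagocytes and other cells, had values of 126 and 123 in Sibling, 117 and 171 in hhex mutant and 842 and 799 in hhex overexpression, a log2 fold change of 2.71 ± 0.26 (SE, adjusted p = 0.0907). The lysosomal protease gene lgmn stood at 674 and 1475, 393 and 963, and 2496 and 2279 (1.26, adjusted p = 0.294), and the lysosomal hexosaminidase gene hexb at 283 and 332, 302 and 463, and 558 and 648 (0.97, adjusted p = 0.229). mfap4, a macrophage marker of zebrafish named here after its values were seen, had 12 and 4, 18 and 3, and 54 and 149.

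Of the 16 genes 6, these 4 among them, lay above all 4 other libraries in both overexpression libraries as mpeg1.1 did (16.0% of all genes), and 2 lay below them (17.3%). The list is thin, however: 11 of its 25 matched genes were at 0 in some library, and c1qb was at 0 in all. Against Sibling alone 4 of the 16 were lower without overlap (csf1rb, mpeg1.2, cxcr3.2 and havcr1), 25% of the list where 27.0% of all genes were. In that comparison 7 were higher without overlap, 43.75% where 26.9% of all genes were. csf1rb, the duplicate of csf1ra, had 2312 and 2187 in Sibling, 3315 and 1199 in hhex mutant and 228 and 403 in hhex overexpression, with a log2 fold change of -2.89 ± 0.46 (SE, adjusted p = 0.191). The ratio of the csf1rb to the csf1ra value was therefore 210 and 87.5 in Sibling, 237 and 37.5 in hhex mutant and 9.91 and 5.04 in hhex overexpression. The cytokine gene il1b stood at 66 and 80, 79 and 156, and 63 and 657, high in overexpression replicate 2 alone.

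Transcription factor genes of blood progenitors and myeloid cells were mixed. Of 10 tested, 8 had a log2 fold change below 0 in hhex overexpression against Sibling (median -1.63), and 5 were lower at the unadjusted threshold (8.77% of all genes). In both overexpression libraries 6 were below all 4 other libraries (17.3% of all genes) and 2 above them (16.0%). The 2 above were tfec and cebpd, a C/EBP factor (467 and 872 in Sibling, 243 and 755 in hhex mutant, 1364 and 1004 in hhex overexpression). myb, needed for definitive blood progenitors, had values of 1836 and 1270 in Sibling, 3918 and 1362 in hhex mutant and 127 and 262 in hhex overexpression, a log2 fold change of -3.06 ± 0.52 (SE, adjusted p = 0.191). runx3 stood at 1158 and 742, 2952 and 317, and 43 and 221 (-3.23, adjusted p = 0.270), and cebpb at 2299 and 2052, 3745 and 2111, and 658 and 1204 (-1.29, adjusted p = 0.229).

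cebp1, a C/EBP factor of granulocytes, had 2585 and 2316 in Sibling, 4859 and 4454 in hhex mutant and 85 and 2299 in hhex overexpression, in the order of cebpa without overlap, although overexpression replicate 2 lay just under Sibling. gfi1aa, a repressor of blood progenitors, was highest in hhex mutant (60 and 14, 266 and 117, 11 and 4), with a log2 fold change of 2.55 against Sibling (unadjusted p = 0.012, adjusted p = 1), and tfec, known from pigment and other neural crest cells as well as blood, was lowest there (56 and 79, 5 and 30, 106 and 126; -2.31, unadjusted p = 0.012, adjusted p = 1).

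The 2 remaining lists were small. The 5 genes of the NADPH oxidase, with which phagocytes make superoxide, had a median of -0.75 in hhex overexpression against Sibling and 0 passed the unadjusted threshold; ncf1 had values of 290 and 369 in Sibling, 417 and 277 in hhex mutant and 49 and 436 in hhex overexpression, and ncf4 and cybb had log2 fold changes of -1.39 and -0.75. Of the growth factor genes that act on myeloid cells, 4 were tested, with a median of 0.51 (-0.31 after that rescaling) and 0 past the unadjusted threshold, and the most read, il34, stood at 48 and 82, 55 and 138, and 23 and 151. csf3b and csf1a stayed at or below 34 in every library.

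**Figure D4:**
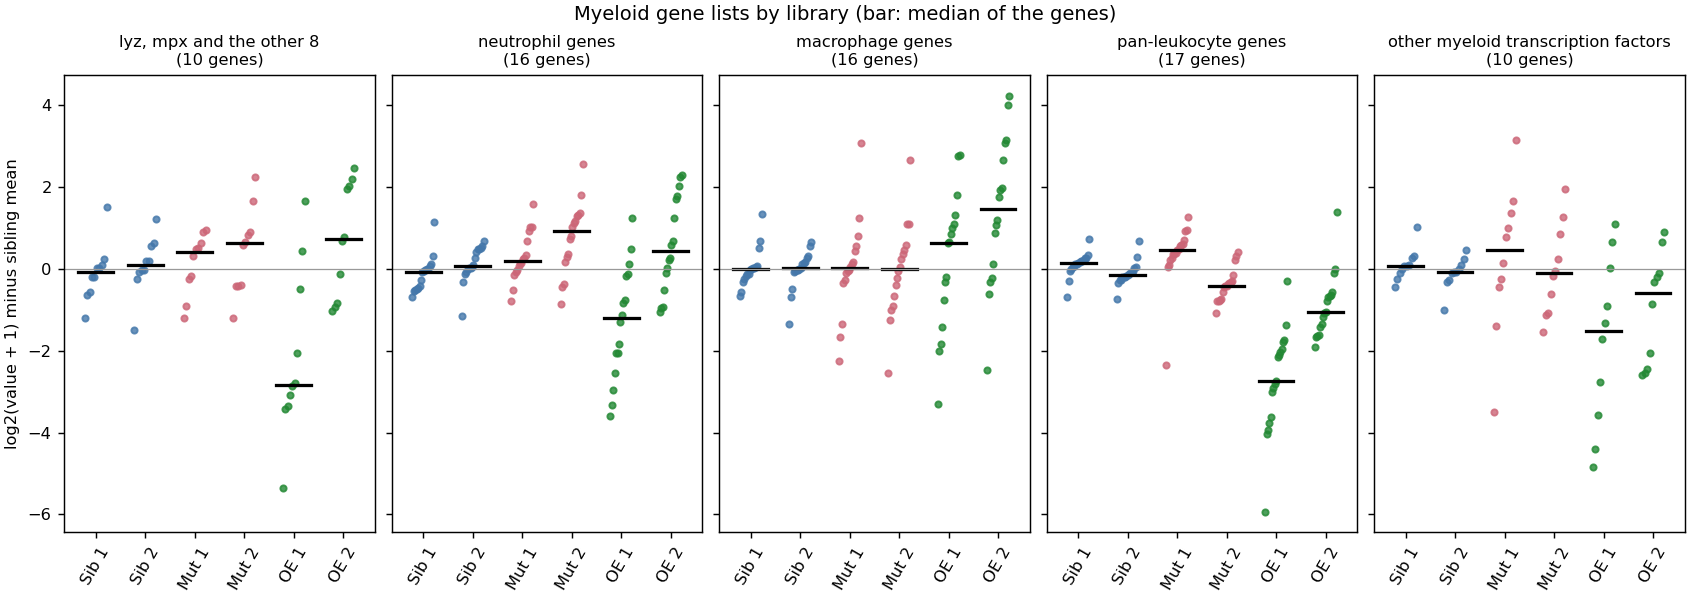
The 10 myeloid genes and 4 lists of other myeloid genes by library (y axis, log2(value + 1) minus the mean of the 2 Sibling libraries; points, genes; bars, median of the list; colours as groups). The pan-leukocyte medians were -2.74 and -1.06 in the overexpression libraries, the neutrophil medians -1.21 and 0.43, and the macrophage medians 0.64 and 1.47.

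In hhex overexpression against hhex mutant the lists gave 26 of 68 genes lower (38.2%, where 8.9% of all genes were) and 9 higher (13.2%, where 8.68% were) at the unadjusted threshold, again with 0 past the adjusted one. The pan-leukocyte list had 14 of 17 genes lower and a median of -2.01. The transcription factors had 6 of 10 lower, 2 higher and a median of -1.90. The neutrophil list had 4 of 16 lower and a median of -0.65, and the macrophage list had 6 of 16 higher, 1 lower and a median of 0.43. The neutrophil median became 0.12 without overexpression replicate 1. After rescaling to an equal endothelial level the macrophage median became -0.48, where the median of all genes became -0.89. Both comparisons share the overexpression libraries. In hhex mutant against Sibling 4 of 68 were higher (5.88%, where 1.23% of all genes were) and 1 was lower (1.47%, where 2.17% were).

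Markers of other cell types differed between groups and also between replicates of a group, and their part in the differences above was not tested. The endothelial sum was lowest in hhex mutant replicate 1, at 25485 against 73245 in replicate 2. In Sibling the 2 libraries summed to 36083 and 60905. All 12 endothelial markers had a log2 fold change above 0 in hhex overexpression against Sibling, where 10715 of the 20900 genes did. The median of these markers was 0.83. Rescaling the libraries to an equal endothelial level shifted the median of all genes to -0.80 in that comparison. The rescaling moved the log2 fold change of every gene by the same amount, so it could not change how the genes stand to each other. On that scale lcp1 was at -2.68, coro1a at -2.88, cebpa at -2.67, csf1ra at 0.50 and mpeg1.1 at 1.24, and marco changed sign to -0.06. Of the other blood lineages, 12 of 13 erythroid markers were below 0 in hhex overexpression (median -0.75, sums of 8297 and 5375 in Sibling, 8480 and 6739 in hhex mutant, 5333 and 4153 in hhex overexpression) and 5 of 6 thrombocyte markers were below all 4 other libraries, with sums of 3321 and 2057, 2741 and 2507, and 2505 and 2577. Of 7 lymphoid markers, with sums of 1114 and 669, 2052 and 423, and 67 and 189, 4 were tested and 2 of them were below all 4 other libraries. Of all genes tested 17.3% were below all 4 other libraries in both overexpression libraries. The thrombocyte marker outside the 5, thbs1b, made up most of each thrombocyte sum. Its values were 2419 and 1558 in Sibling, 1751 and 2204 in hhex mutant and 2344 and 2444 in hhex overexpression. The thrombocyte marker itga2b and the lymphoid markers rag1, rag2 and lck were at 0 in some libraries.

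Tissues outside the blood and vessels were also detected. The 8 muscle markers summed to 46091 and 27702 in Sibling, 14865 and 8107 in hhex mutant and 8162 and 21903 in hhex overexpression, below 0 for all 8 in hhex mutant and in hhex overexpression against Sibling. The 8 epidermis markers summed to 4376 and 1772, 3096 and 738, and 5726 and 6711, and 6 of them were above all 4 other libraries in hhex overexpression, as were 4 of 8 neural markers (3456 and 3529, 2613 and 2737, 5987 and 5275). Of all genes tested 16.0% were above all 4 other libraries in both overexpression libraries. No endothelial, erythroid, muscle or neural marker stood at 0 in any library, while the epidermis marker agr1 was at 0 in mutant replicate 2.

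The genes with profiles most like the mean profile of the 10, among 10212 others with a mean of at least 50, were ssr1, atp5ib, adam19b, pdhb, nelfcd, ssuh2.3, npsn and SNORA35, with Pearson's r of 0.987 to 0.969 over the 6 libraries. The likeness rests on overexpression replicate 1, in which all 8 had their lowest value, and it ignores the size of the difference: ssr1, a subunit of the translocon-associated complex, ran only from 828 to 1080, against 48 to 2070 for npsn. Among the 10 genes themselves, lyz followed the mean profile most closely and mpeg1.1 least. The profile is the unscaled mean of these same genes, so a gene of wide spread such as lyz weighs most in it. That order is in part set by how the profile was built.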

How the data were processed

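Cells were sorted at 48 hpf, 6 ng of total RNA per library was used with a stranded total RNA kit, and single-end reads were sequenced. The authors trimmed reads with Reaper, aligned them with STAR 2.4.0a to GRCz10 with the Ensembl annotation, assigned reads touching exons to genes with featureCounts 1.4.5-p1, dropping ambiguous and multiply aligned reads, and normalized with DESeq2. The deposited signal is the read number divided by a size factor and rounded by the authors to whole numbers, so count models were not used. Among whole numbers to 200, 18 never occur in mutant replicate 2 and 11 never occur in overexpression replicate 1, a trace of this scaling.

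Values were fitted as log2(value + 1) with limma 3.58.1 in R 4.3.3 (trend and robust variances, all 6 libraries, no block, Benjamini-Hochberg over 20900 genes). The degrees of freedom of a gene were at most 7.96. Fold changes on this scale understate those of low genes. The script was tested on simulated data. Intervals of ratios are exact binomial intervals on reads estimated from the values. They pool the 2 libraries of a group and are no test of a difference between groups. The 10 genes and all lists were chosen with earlier results of these data known; 84 of 88 listed other myeloid genes were found. Genes of the lists were named by rank: the 3 with the highest mean and, per comparison, the 2 with the largest difference among those with a mean of at least 50; npsn was named as 1 of the 8 genes most like the mean profile, and other genes outside the rule (mpeg1.2, mmp9, mmp13a, mfap4, cebpd, alox5a, adam8a, rac2, hcls1, fcer1gl, cxcr3.2, havcr1, runx1, wasb, lcp2a and parvg) were added after their values were seen. Alternatives were other filters, pseudocounts (0.5 and 5), quantile scaling, rescaling to endothelial markers, the 4 libraries of a comparison alone, a replicate block and leaving out each library. A listed gene that the naming rule picks is not reported here. No sequences are shown, since no sequence table was used here.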

Additional observations from a re-analysis of the deposited data

How the results depend on the processing

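The count of genes past the adjusted threshold depended on the fit. For hhex overexpression against Sibling, 0 as reported, it was 4 without the filter on low values, 4 with quantile scaling, 42 after rescaling to endothelial markers and 841 with only the 4 libraries compared, and leaving out single libraries gave 0 to 838 (793 without hhex mutant replicate 1, 838 without replicate 2, 1 without hhex overexpression replicate 2). The 68 other myeloid genes gave 1 without the filter, 1 with quantile scaling, 2 after rescaling, 11 with only 4 libraries and 0 to 11 leaving out single libraries. For hhex mutant against Sibling leaving out single libraries gave 0 to 13 genes (13 without mutant replicate 1, 2 without replicate 2). For hhex overexpression against hhex mutant the count was 10 without the filter and 84 after rescaling, and 0 to 2512 leaving out single libraries (115 without mutant replicate 1, 2512 without replicate 2, 6 without overexpression replicate 2); the other myeloid genes gave 1 without the filter, 6 after rescaling and 0 to 23. With a mutant library left out, the mutant group adds nothing to the estimated spread; the cause of the other shifts was not tested.

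Leaving out single libraries moved the median of the 10 genes between -2.83 and 0.73 for hhex overexpression against Sibling, between -2.93 and -0.18 against hhex mutant, and between 0.22 and 0.63 for hhex mutant against Sibling. Of 411 alternative values of single genes, 376 lay within the replicate spread of the gene. That count does not measure stability, since some alternatives, the replicate block among them, leave a fold change as it is by design. In hhex overexpression against Sibling, spi1b, lyz and mpx changed sign without overexpression replicate 1, and marco changed sign in 3 alternatives. There spi1a, cebpa, csf1ra, mpeg1.1, lcp1 and coro1a kept their sign. A replicate block gave 0 genes in each comparison; same-numbered libraries deviated together for Sibling and hhex mutant (correlation 0.487) but not with hhex overexpression (-0.107 and -0.204), so the numbers are not shown to pair the libraries. With 2 libraries per group the values of all 10 genes are uncertain. In hhex overexpression against Sibling the standard error was largest for lyz (1.79), mpx (1.70) and marco (1.35). csf1ra, marco and mpeg1.1 also had few reads, which adds counting error.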
